A study of Mus musculus with 12 samples.

Results

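Thioredoxin-interacting protein (Txnip), the arrestin-domain genes Arrdc1 to Arrdc4, and the transcription factor genes Mlxip and Mlx were followed in mouse 3T3-L1 adipocytes given berberine. They were taken as every probe set whose single gene symbol in the platform annotation was one of these names, which gave 7 genes of the 18193 on the array and 12 probe sets of 45037. Of these 12 probe sets, 11 passed a filter on low signal, and all 7 genes were tested. Arrdc3 RNA was higher than in DMSO cells at every time, by 1.66-fold at 3 h, 1.76-fold at 6 h and 1.74-fold at 12 h. Txnip and Arrdc4 RNA were lower at 6 h, by 1.24-fold and 1.36-fold, and at 12 h Arrdc1 was 1.47-fold higher while Arrdc4 was 1.26-fold and Mlx 1.29-fold lower. The 3 Arrdc3 calls held under each of the 16 alternatives tried for them, while the 12 h calls were lost in 13 of 16 for Arrdc4, 8 of 16 for Mlx and 4 of 16 for Arrdc1, whose second probe set read -0.30. The 6 h calls were lost in 6 of 16 for Arrdc4 and 1 of 16 for Txnip. A second Arrdc4 probe set read 0.03 at 6 h and -0.19 at 12 h, with no call, so its decrease rests on 1 of 2 probe sets. Because Arrdc3 has 1 probe set, the alternatives that averaged or chose among probe sets left its values unchanged. Arrdc2 and Mlxip were not called at any time in the fit over all 12 arrays.

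3T3-L1 is an established mouse preadipocyte line that stores fat after hormonal induction, and berberine is a plant alkaloid. Differentiated cells at 8 to 10 days were held for 12 h in medium with 0.2% albumin and no serum, and then received DMSO, the control agent, or 5 µM berberine for 3, 6 or 12 h. The 4 groups had 3 single-colour Affymetrix arrays each, and the labels of the DMSO group give no duration, so berberine and time in culture cannot be told apart in the comparisons with DMSO. All 3 of these comparisons use the same DMSO arrays. Whether the 3 samples of a group came from separate cultures is not in the labels. If they did not, the p-values measure technical spread alone.

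Txnip is an alpha-arrestin that binds and inhibits thioredoxin and promotes internalisation of the glucose transporters GLUT1 and GLUT4. MondoA, the product of Mlxip, pairs with the product of Mlx; when glucose 6-phosphate accumulates the pair moves to the nucleus and activates Txnip and Arrdc4 through carbohydrate response elements, which are paired E-box-like sequences. The Arrdc proteins are relatives of Txnip that link membrane proteins to ubiquitin ligases of the NEDD4 family. Arrdc3 is known to bind beta-adrenergic receptors and to restrain energy expenditure in adipose tissue, Arrdc4 to lower glucose uptake, and Arrdc1 to drive the budding of vesicles from the plasma membrane.

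The promoters of the 2 glucose-response targets and of Arrdc3, the gene with the changes of largest size among the 7, are given first. They are RefSeq windows on the GRCm38.p6 build, from 250 bases before the annotated start through the first 50 bases of the transcript, read 5′ to 3′ on the strand of the gene. All 7 genes matched a window by symbol. Capitals mark CCAAT or its reverse complement ATTGG (the letters bound by NF-Y), the palindromic E-box CACGTG, and pairs of E-box-like elements CACGNG or CNCGTG that lie 5 bases apart.
Txnip, chr3:96557707-96558006, plus strand: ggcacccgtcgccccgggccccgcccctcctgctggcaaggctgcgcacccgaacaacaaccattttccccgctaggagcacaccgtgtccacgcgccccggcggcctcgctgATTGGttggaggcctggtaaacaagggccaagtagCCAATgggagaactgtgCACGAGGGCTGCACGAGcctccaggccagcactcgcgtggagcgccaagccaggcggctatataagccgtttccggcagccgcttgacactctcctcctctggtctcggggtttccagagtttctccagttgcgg
Arrdc4, chr7:68749189-68749488, minus strand: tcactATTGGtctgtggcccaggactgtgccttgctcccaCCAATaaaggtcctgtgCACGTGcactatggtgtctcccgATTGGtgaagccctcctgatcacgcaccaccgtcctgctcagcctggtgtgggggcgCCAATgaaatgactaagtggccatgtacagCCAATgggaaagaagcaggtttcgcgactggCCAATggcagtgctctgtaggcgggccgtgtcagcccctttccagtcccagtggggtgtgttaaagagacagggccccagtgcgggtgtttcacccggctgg
Arrdc3, chr13:80883134-80883433, plus strand: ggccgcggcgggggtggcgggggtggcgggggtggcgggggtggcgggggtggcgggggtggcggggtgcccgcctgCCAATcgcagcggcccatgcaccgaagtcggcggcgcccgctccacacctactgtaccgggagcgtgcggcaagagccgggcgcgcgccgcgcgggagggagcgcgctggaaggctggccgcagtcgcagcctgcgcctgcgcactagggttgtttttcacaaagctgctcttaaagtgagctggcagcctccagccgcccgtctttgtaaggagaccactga

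The Txnip window held 1 such pair, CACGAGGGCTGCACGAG, whose first base lay at -85 from the start, and 2 CCAAT letters at -137 and -102. Of all 32851 windows of that length, 0.0822% held a pair of this form and 37.4% held CCAAT in either orientation. The form of the pair was chosen with the Txnip element known, so its presence there is no result. The Arrdc4 window held no pair of this form. It held CACGTG at -193 and 6 CCAAT letters in either orientation, between -245 and -52. CACGTG was present in 7.15% of all windows, and windows with as many CCAAT letters were not counted. The Arrdc3 gene has 3 annotated starts on chromosome 13. The printed window held CCAAT once, at -173. The window at chr13:80883172-80883471 overlaps it and holds the same letters, the one at chr13:80885845-80886144 had no CCAAT, and none of the 3 held CACGTG or the pair. Mlx had CACGTG at -40 and CCAAT 2 times, Mlxip had CCAAT 2 times, Arrdc2 3 times, and the Arrdc1 window had none of the marked letters. A match of letters describes the window and does not show that a factor binds there.

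Values are log2 signals as deposited. Probe sets were kept where at least 3 of 12 arrays reached a log2 signal of 5.77, the median of all probe sets, and 1 kept probe set stood for each gene, the one with the highest mean. Changes are differences of group means on the log2 scale with limma's standard error, and a gene was called at a Benjamini-Hochberg adjusted p under 0.05 over 12136 genes. Of the arrays' probe sets, 47.9 to 51.6% reached the threshold. Arrays of 1 group correlated at 0.91 to 0.924 and arrays of different groups at 0.907 to 0.923 over all probe sets. All 6 adipocyte markers that could be matched (among them Adipoq and Fabp4) were above the threshold in every group, and none of 5 endothelial markers was. The summed linear signal of the adipocyte markers was 137306 to 175973 on the DMSO arrays, 161193 to 181483 at 3 h, 172629 to 189545 at 6 h and 156162 to 170846 at 12 h. Their mean log2 signal, which weighs the 6 genes equally, was 14.00 to 14.25 on the DMSO arrays, 14.16 to 14.27 at 3 h, 14.08 to 14.20 at 6 h and 13.81 to 13.86 at 12 h, so that every 12 h array lay below every DMSO array. Gene by gene, these markers moved both ways. At 12 h limma called Cidec and Lipe lower and Lpl higher, with 3 not called and a median change of 0.0656. At 6 h it called Adipoq, Fabp4, Pparg and Lpl higher and Cidec and Lipe lower. At 3 h it called only Cidec, which was lower. At that time 5 of the 6 had an unadjusted p under 0.05, and the median change was 0.205. Of all genes tested, 28.2% were called at 12 h, 14.2% at 6 h and 1.90% at 3 h. Fibroblast markers reached the threshold for 6 of 7 genes, all but Cd34. Their sums were 47893.7 to 55995.8 on the DMSO arrays and 52424.9 to 57331.5 on the berberine arrays. Their mean log2 signal was 10.83 to 10.99 on the DMSO arrays and 10.59 to 10.87 at 12 h, ranges that overlapped. Of the fibroblast markers, limma called Pdgfra and Col1a1 lower at 6 h and 12 h. It called Col3a1 higher at 6 h, and none at 3 h. Of 6 macrophage markers, 4 reached the threshold in every group, all but Adgre1 and Ptprc, and limma called Cd14 higher at 6 h and 12 h. The sum over all 6 was 829 to 994 on the DMSO arrays and 992 to 1196 on the berberine arrays. The part of these shifts in the results was not tested, and in bulk RNA fewer cells of a type and less RNA per cell cannot be told apart.

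At 3 h, 1 of the 7 genes was called, against 1.90% of all genes tested (1.09% higher and 0.816% lower). At 6 h, 3 were called, 1 higher and 2 lower, against 14.2% of all genes (7.24% higher and 6.98% lower). At 12 h, 4 were called, 2 in each direction, against 28.2% (13.7% higher and 14.6% lower). The groups did not overlap for 3 genes at 3 h, 4 at 6 h and 5 at 12 h, against 19.0%, 29.9% and 39.4% of all genes. The median change of the 7 genes was -0.13 at 3 h, -0.31 at 6 h and -0.21 at 12 h, beside 0.0153, 0.0127 and -0.00758 over all genes tested. The moderated F test over the 3 comparisons with DMSO called 25.1% of all genes and 3 of the 7, Txnip (adjusted p = 0.0202), Arrdc3 (3.37e-05) and Arrdc4 (0.0409). Between berberine times none of the 7 was called by limma, where 2.34% of all genes differed between 6 h and 3 h, 5.69% between 12 h and 6 h, and 17.7% between 12 h and 3 h. At an unadjusted p under 0.05, 1 (Txnip) of the 7 differed between 6 h and 3 h, 1 (Arrdc1) between 12 h and 6 h and 0 between 12 h and 3 h.

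**Figure D1:**
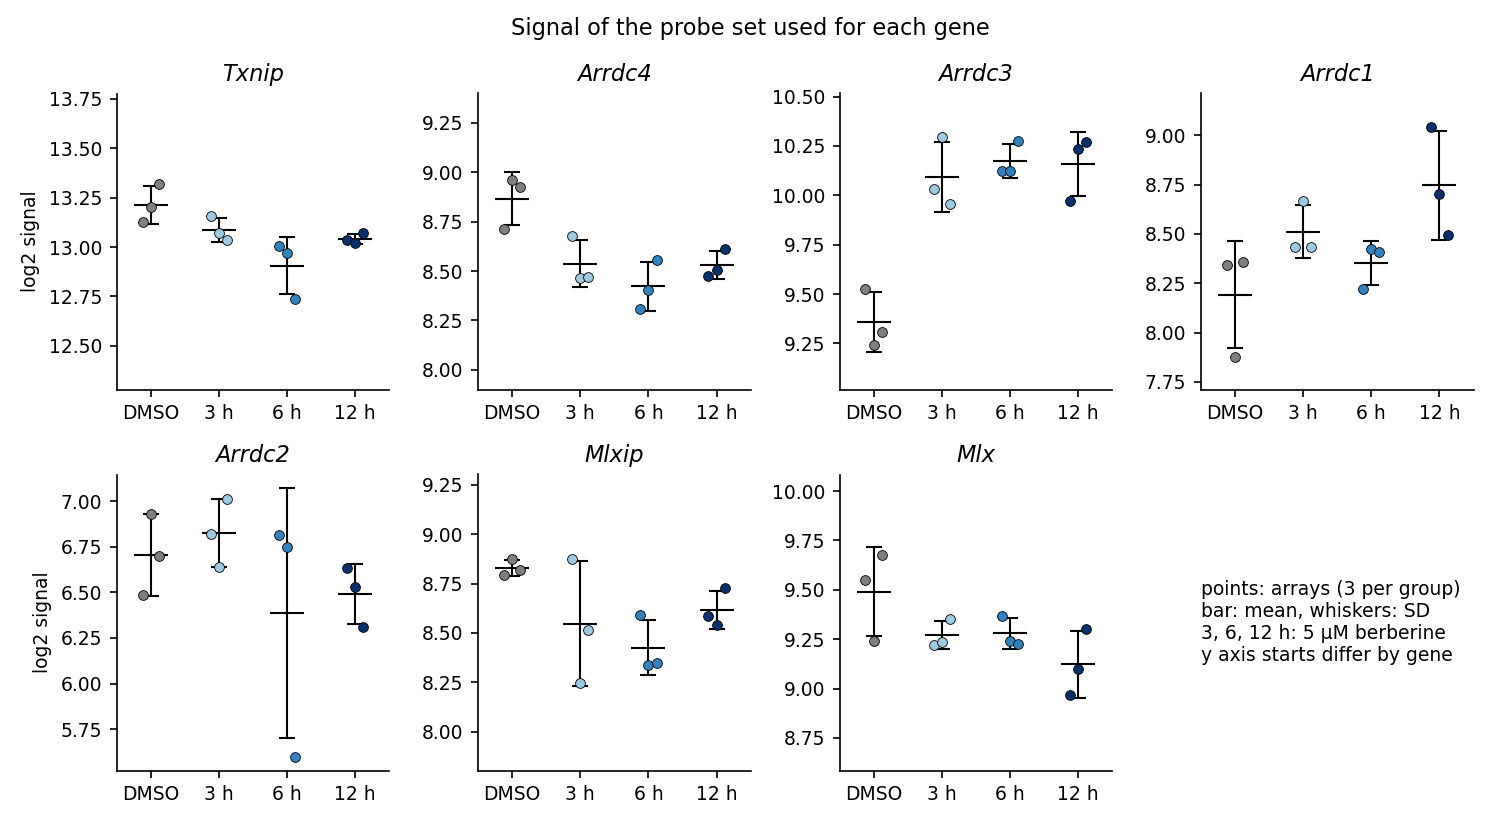
Log2 signal of the probe set used for each of the 7 genes on each of the 12 arrays, by group (DMSO, berberine 3, 6 and 12 h); points are arrays, horizontal bars are group means and whiskers are SD. The Arrdc3 points of every berberine group, 9.96 to 10.29, lie above the DMSO points, 9.24 to 9.53.

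Of the transcription factor genes, Mlxip encodes the glucose-sensing partner. Its log2 signals were 8.80, 8.87 and 8.82 in DMSO cells, 8.88, 8.24 and 8.52 at 3 h, 8.59, 8.34 and 8.35 at 6 h, and 8.58, 8.54 and 8.73 at 12 h. The DMSO arrays lay close together and above every 6 h and 12 h array, while 1 array at 3 h was as high as the DMSO cells. The change was -0.28 ± 0.14 at 3 h, -0.40 ± 0.14 at 6 h and -0.21 ± 0.14 at 12 h, and none passed the test (limma adjusted p = 0.403, 0.0668 and 0.301). The 95% interval at 6 h ran from -0.70 to -0.10 before adjustment over genes. With only the DMSO and 6 h arrays in the fit, the 6 h value passed the threshold (adjusted p = 0.0482).

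Mlx encodes the DNA-binding partner shared by MondoA and ChREBP. Its signals were 9.55, 9.24 and 9.68 in DMSO cells, 9.22, 9.24 and 9.35 at 3 h, 9.37, 9.24 and 9.23 at 6 h, and 8.97, 9.10 and 9.30 at 12 h. The 12 h arrays were low, but the highest of them lay above the lowest DMSO array. Mlx fell by 0.37 ± 0.12 at 12 h (limma adjusted p = 0.0242), and the changes of -0.22 at 3 h and -0.21 at 6 h were not called (0.427 and 0.261). The 12 h call was lost without DMSO replicate 1 (0.0853), DMSO replicate 3 (0.123), 12 h replicate 1 (0.11) or 12 h replicate 2 (0.0654). The second Mlx probe set was lower by -0.23 ± 0.13 at 12 h and by -0.35 at 6 h, with no call (adjusted p = 0.254 and 0.114 over all kept probe sets).

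Txnip signals were 13.12, 13.20 and 13.32 in DMSO cells, 13.15, 13.07 and 13.04 at 3 h, 13.01, 12.97 and 12.74 at 6 h, and 13.03, 13.02 and 13.07 at 12 h. Every 6 h and 12 h array was below every DMSO array, and the 3 h arrays overlapped them. Txnip fell by 0.31 ± 0.07 at 6 h (limma adjusted p = 0.00701), a call that held without any single DMSO or 6 h array (adjusted p up to 0.0414). The changes of -0.13 ± 0.07 at 3 h and -0.17 ± 0.07 at 12 h did not pass (0.454 and 0.0788). The 6 h level was -0.18 ± 0.07 from the 3 h level and the 12 h level was 0.14 ± 0.07 above the 6 h level, and neither difference passed (0.204 and 0.308), so the order of the 3 times was not resolved. A second Txnip probe set read 9.59, 9.73 and 9.98 in DMSO cells and 9.54, 9.42 and 9.41 at 6 h. Its changes of -0.10, -0.31 and -0.19 ± 0.12 at 3, 6 and 12 h had the same sign as those of the one used, with a wider spread and no call (adjusted p = 0.808, 0.102 and 0.288).

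Arrdc4 is the other direct glucose-response target among the 7. Its signals were 8.71, 8.96 and 8.92 in DMSO cells, 8.68, 8.47 and 8.47 at 3 h, 8.31, 8.40 and 8.55 at 6 h, and 8.47, 8.51 and 8.61 at 12 h. No berberine array at any time reached the lowest DMSO array. Arrdc4 fell by 0.44 ± 0.12 at 6 h (limma adjusted p = 0.018) and by 0.33 ± 0.12 at 12 h (0.0434), and the 3 h value of -0.33 ± 0.12 was not called (0.198). The 6 h call was lost without DMSO replicate 2 (0.0661) or 3 (0.0612) or 6 h replicate 1 (0.0667) or 2 (0.0551). The 12 h call was lost without DMSO replicate 2 (0.14) or 3 (0.12) or any one 12 h array (0.117, 0.103 and 0.0509 without replicates 1, 2 and 3).

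The second Arrdc4 probe set did not follow the first. It read 8.29, 8.05 and 8.00 in DMSO cells, 8.11, 8.32 and 8.00 at 6 h, and 7.27, 8.55 and 7.95 at 12 h, so its 12 h arrays lay on both sides of the DMSO arrays. Its changes were -0.10, 0.03 and -0.19 ± 0.24 at 3, 6 and 12 h, with no call (adjusted p = 0.919, 0.962 and 0.637). In the fit over all kept probe sets, the first kept its 6 h call and had an adjusted p of 0.051 at 12 h. The decrease of Arrdc4 is therefore the reading of 1 of its 2 probe sets.

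**Figure D2:**
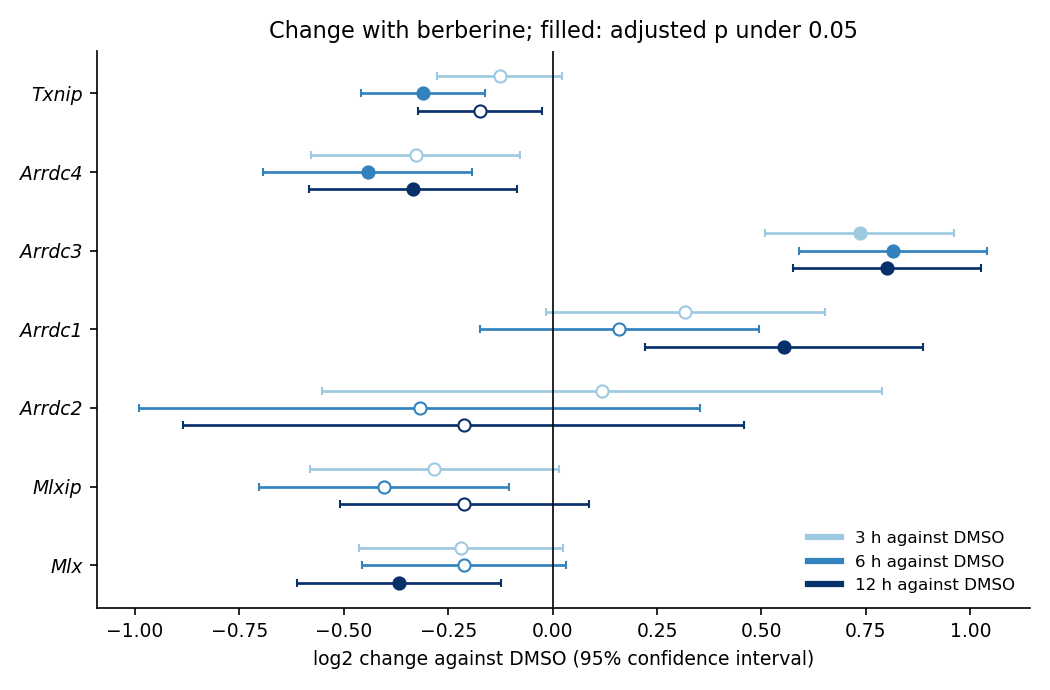
Difference from DMSO in log2 signal for each of the 7 genes at 3, 6 and 12 h of berberine, with 95% intervals from the limma fit; filled points passed the adjusted p threshold. The intervals of Arrdc3 lie above 0 at all 3 times, and the Txnip estimate is -0.31 at 6 h.

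Arrdc3 signals were 9.53, 9.24 and 9.31 in DMSO cells, 10.03, 10.29 and 9.96 at 3 h, 10.12, 10.12 and 10.28 at 6 h, and 9.97, 10.24 and 10.27 at 12 h. Each of the 9 berberine arrays was above all 3 DMSO arrays. Arrdc3 rose by 0.73 ± 0.11 at 3 h, 0.82 ± 0.11 at 6 h and 0.80 ± 0.11 at 12 h (limma adjusted p = 0.000934, 7.36e-05 and 2.29e-05). Without any single array of the groups compared, its adjusted p was at most 0.00872 at 3 h, 0.000792 at 6 h and 0.000242 at 12 h. The level at 6 h differed from that at 3 h by 0.08 ± 0.11 (95% interval -0.15 to 0.31) and the level at 12 h from that at 6 h by -0.01 ± 0.11 (-0.24 to 0.21), so the 3 times were not ordered beyond their spread (adjusted p = 0.786 and 0.968). Arrdc3 has 1 probe set, and no other probe set could be set beside it.

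Arrdc1 signals were 8.34, 7.88 and 8.36 in DMSO cells, 8.43, 8.67 and 8.43 at 3 h, 8.22, 8.42 and 8.41 at 6 h, and 9.04, 8.70 and 8.50 at 12 h. The 3 h and 12 h arrays were above all DMSO arrays, and the 6 h arrays overlapped them. Arrdc1 rose by 0.55 ± 0.16 at 12 h (limma adjusted p = 0.0137), and the changes of 0.32 at 3 h and 0.16 at 6 h were not called (0.4 and 0.577). The 12 h call was lost without DMSO replicate 2, which was the lowest array (0.40, adjusted p = 0.0781), or without 12 h replicate 1, the highest (0.41, 0.0863). A second Arrdc1 probe set read 6.62, 6.43 and 5.68 in DMSO cells and 6.43, 5.29 and 6.11 at 12 h, a change of -0.30 ± 0.41 (adjusted p = 0.662), opposite in sign and not called. The remaining Arrdc1 probe set reached the threshold on 0 of 12 arrays, at log2 signals of 2.65 to 4.99, and was not tested.

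Arrdc2, the remaining alpha-arrestin, gave signals near the threshold of 5.77. They were 6.49, 6.93 and 6.70 in DMSO cells, 6.82, 6.64 and 7.01 at 3 h, 6.82, 6.75 and 5.60 at 6 h, and 6.63, 6.53 and 6.31 at 12 h. The groups overlapped at every time, with 6 h replicate 3 well below the other 2 arrays of its group. Without it the 6 h change was 0.08 (limma adjusted p = 0.901), so the sign at 6 h rested on that array. Its changes of 0.12, -0.32 and -0.21 ± 0.32 at 3, 6 and 12 h were not called (limma adjusted p = 0.921, 0.583 and 0.682). The 12 h interval, -0.88 to 0.46, leaves room for a decrease larger than that of Arrdc4.

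**Figure D3:**
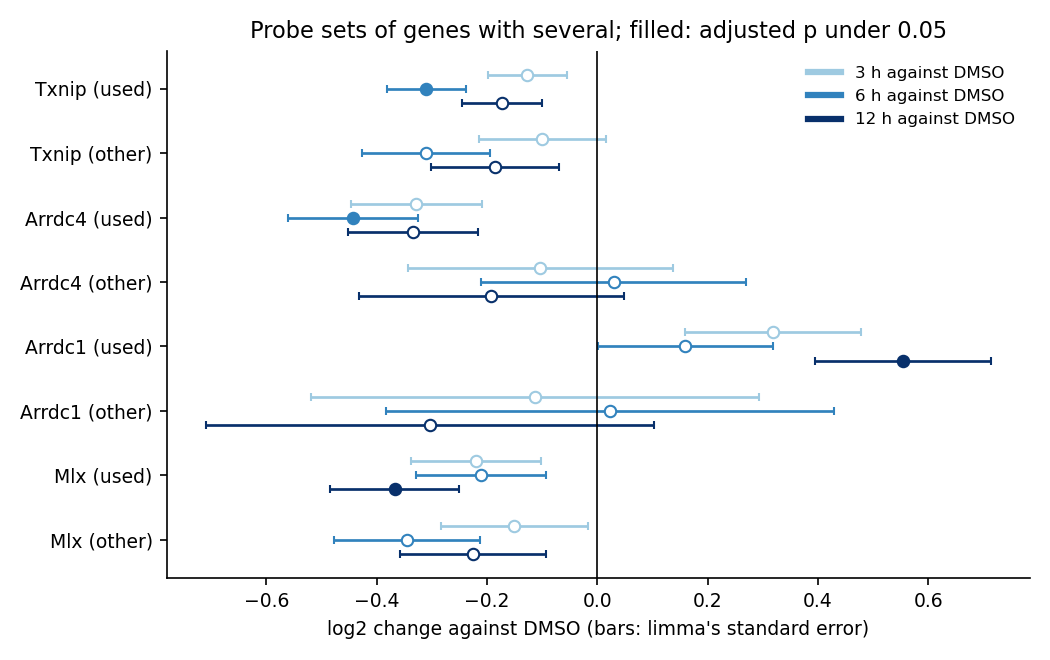
Difference from DMSO in log2 signal at 3, 6 and 12 h for every kept probe set of the genes with more than 1, in the fit over all kept probe sets; bars are limma's standard errors and filled points passed the adjusted p threshold. The 2 Txnip probe sets read -0.31 at 6 h, while those of Arrdc4 read -0.44 and 0.03.

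Over the 12 arrays the log2 signals of Txnip correlated with those of Arrdc4 at Pearson's r = 0.669 (Spearman's rho = 0.727) and with Mlxip at 0.714 (rho = 0.706). Arrdc3 correlated with Arrdc4 at -0.818 (rho = -0.552) and with Txnip at -0.721 (-0.594). These are descriptions over arrays that share the group differences given above, with no test. Each of these genes was also compared with 9973 others whose group means all lay at or above the threshold. Symbols of predicted, RIKEN and similar unnamed genes were left out before ranking. Among the 9973, the genes most like Txnip were Baz2a (r = 0.926), Slc35d1 (0.899), Khdc4 (0.88), Zfp862-ps (0.878) and Pik3c3 (0.874). At 6 h these genes, in that order, changed by -0.37, -0.60, -0.42, -0.62 and -0.65. All but Slc35d1 were called (limma adjusted p = 0.00815, 0.0632, 0.00981, 0.0045 and 0.00641). Those most like Arrdc4 were Gmfb (0.91), Wnt5a (0.899), Macf1 (0.882), Zbtb11os1 (0.881) and Rbm45 (0.869). For Arrdc3, a comparison added after its values were seen, they were Ppargc1a (0.951), Chac1 (0.941), Klf11 (0.936), Slc3a2 (0.93) and Siah1a (0.924). Spearman's rho was 0.804 to 0.937 for the genes like Txnip, 0.748 to 0.811 for those like Arrdc4 and 0.615 to 0.762 for those like Arrdc3. With the group means removed, the correlation of Ppargc1a, which encodes the coactivator PGC-1alpha, was 0.834, and that of Klf11 was 0.451.

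The wider pathway was described with lists chosen with earlier results of these data known. Among the MAX network, the relatives and dimer partners of Mlx, 1 of 9 genes was lower at 3 h, 4 were lower at 6 h, and 6 were lower and 1 higher at 12 h, with a median change of -0.41 at 12 h. All list counts at 3, 6 and 12 h are to be read against the 1.90%, 14.2% and 28.2% of all genes called, and medians at 12 h against -0.00758. The genes lower at 12 h included Mxd1 (-0.69, limma adjusted p = 0.000477), a repressor that can pair with Mlx, Mxi1 (-0.35, 0.0046), the only one also lower at 3 h, and Myc (-0.57, 0.000133). Averaging the probe sets of each gene gave 1 call in the list at 12 h, and taking the most variable probe set gave 3. With the average, Mxd1 was -0.20 (0.271) and Mxi1 -0.10 (0.548) at 12 h, and Mxi1 was -0.21 (0.443) at 3 h. Mlxipl, which encodes ChREBP, the glucose-responsive paralogue of MondoA, changed by -0.21, 0.02 and -0.15 at 3, 6 and 12 h, with no call (0.671, 0.968 and 0.593).

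Of 15 tested genes known as glucose-response targets of the Mondo family (19 of 20 were on the array), none was called at 3 h by limma (3 at an unadjusted p under 0.05), 2 were higher and 3 lower at 6 h, and 4 were higher and 6 lower at 12 h, with a median of -0.27. The 3 h count was 1 without DMSO replicate 2 and 2 without DMSO replicate 3. The 6 h count of 5 fell to 2 without DMSO replicate 1 or 6 h replicate 2, and to 3 without DMSO replicate 3. At 12 h Pnpla3, a lipid droplet lipase and transacylase, fell by 1.54 (adjusted p = 2.39e-10), Rgs16, a regulator of G-protein signalling, by 1.18 (0.000898), Gpd1, which supplies glycerol 3-phosphate, by 0.90 (2.63e-07), and Fasn, fatty acid synthase, by 0.79 (8.26e-06). With the mean of its probe sets Gpd1 was -0.30 (0.404). The 4 that rose at 12 h were Elovl6, Scd1, Me1 and Mid1ip1, which also act in fatty acid synthesis, so members of the list moved both ways. At 3 h, when Arrdc3 was already higher, the 3 with an unadjusted p under 0.05 were Mid1ip1, Scd1 and Fasn. Mid1ip1 was at 0.32 (adjusted p = 0.0564), Scd1 at 0.25 (0.189) and Fasn at -0.23 (0.273). Fasn was called at -0.36 without DMSO replicate 2 (0.0299).

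The glucose transporters that Txnip acts on were in a list of glucose uptake and hexose phosphate genes, of which 9 were tested. In it 2 genes were lower at 3 h, 3 at 6 h and 4 at 12 h, and none was higher; the median at 12 h was -0.31. At 12 h Slc2a1 (GLUT1) fell by 0.40 (limma adjusted p = 0.00107), Hk2, which phosphorylates glucose to glucose 6-phosphate, by 0.90 (1.16e-06), and Pgm1 by 0.60 (2.85e-05), although the mean of the Pgm1 probe sets was -0.08 (0.768) and the most variable of them read 0.44. Slc2a4 (GLUT4) fell by 0.31 at 12 h (0.0396), a call that was lost without DMSO replicate 1 or 3 or 12 h replicate 1 or 2 (adjusted p = 0.131 to 0.16).

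**Figure D4:**
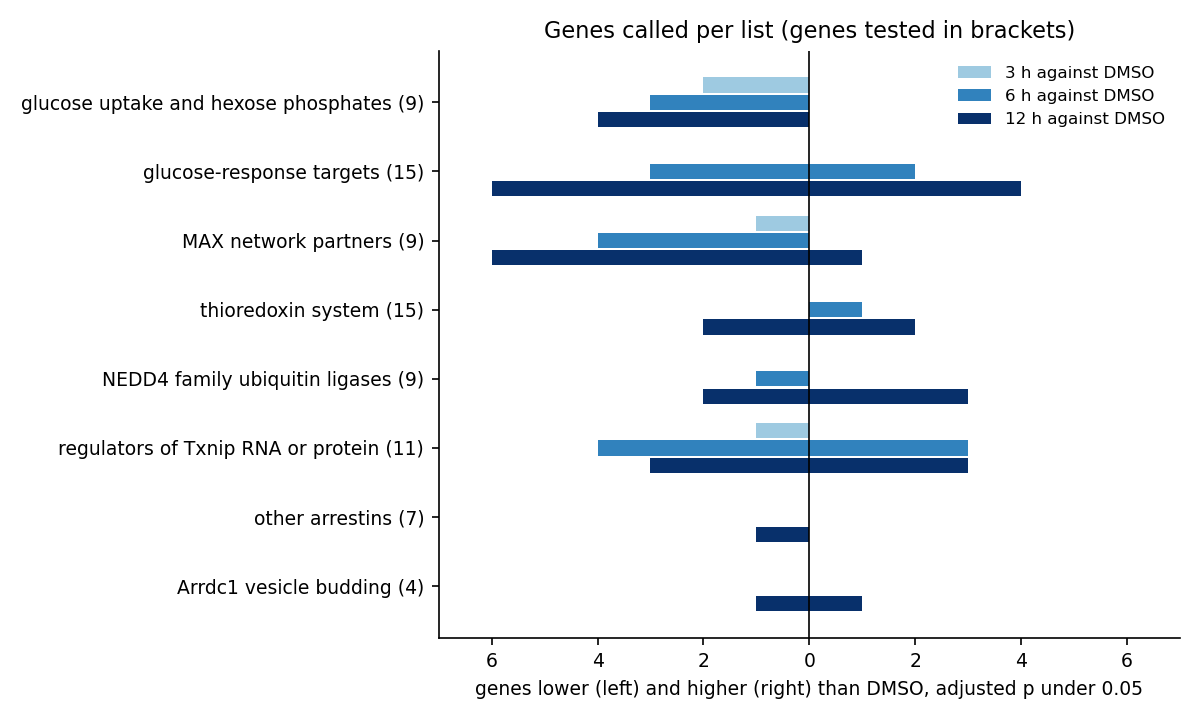
Number of genes called at an adjusted p under 0.05 in each pathway list, lower than DMSO to the left and higher to the right, at 3, 6 and 12 h; the genes tested are given in brackets. In the glucose uptake list all calls are to the left, 2, 3 and 4 of 9 genes, while the glucose-response targets at 12 h have 6 to the left and 4 to the right.

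In the thioredoxin system, which Txnip inhibits, no gene of 15 tested was called at 3 h by limma (0 at an unadjusted p under 0.05), 1 was higher at 6 h, and 2 were higher and 2 lower at 12 h. The 4 of 15 at 12 h were close to the 28.2% of all genes, and the median was -0.08. The 6 h call, Txnl1, was lost without 6 h replicate 2 (0.0508) or 3 (0.0652). With the mean of its probe sets the 6 h change of Txnl1 was 0.05 (0.64). At 12 h Txnl1, a thioredoxin-like protein of the proteasome, rose by 0.59 (adjusted p = 1.41e-06), Srxn1, which repairs peroxiredoxins, rose by 0.42 (0.00325), and Txnrd2, the mitochondrial thioredoxin reductase, fell by 0.62 (0.00124). Txn2, mitochondrial thioredoxin, fell by 0.31 (0.0146), a call lost without DMSO replicate 1 (0.0685) or 3 (0.0574). Srxn1 was 0.29 (0.356) with the mean of its probe sets and -0.15 with the most variable one, and Txnrd2 was -0.32 (0.122) and -0.19 (0.672).

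Among regulators of Txnip RNA or protein, 11 genes, 1 was lower at 3 h, 3 were higher and 4 lower at 6 h, and 3 were higher and 3 lower at 12 h, with a median of -0.04. The 6 h count of 7 was 4 without DMSO replicate 3 or 6 h replicate 3. Ern1, the endoplasmic reticulum stress sensor IRE1alpha, rose by 0.77 at 12 h (limma adjusted p = 5.69e-05), Atf5, a stress-response transcription factor, by 0.68 (1.86e-06) and Nfe2l2 (NRF2) by 0.59 (4.72e-06). Ddit4, whose product REDD1 binds Txnip, fell by 1.03 (1.84e-05). Averaging the Ern1 probe sets turned its 6 h value from 0.49 to -0.41, and its 12 h call was lost with the average (0.194) and with the most variable probe set (0.634).

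Of 9 tested ubiquitin ligases and adaptors of the NEDD4 family, the partners of the Arrdc proteins, none was called at 3 h by limma (2 at an unadjusted p under 0.05), 1 was lower at 6 h, and 3 were higher and 2 lower at 12 h, with a median of 0.00499. The 12 h count of 5 was 1 without DMSO replicate 1, 2 without 12 h replicate 3 and 3 without any other single array of those groups. The 4 genes of vesicle budding by Arrdc1 held 1 higher and 1 lower gene at 12 h, Vps4b (0.27, adjusted p = 0.046) and Pdcd6ip (-0.38, 0.00356). With the mean of probe sets Pdcd6ip was -0.04 (0.865). Vps4b lost its call without DMSO replicate 3 or any one 12 h array (0.0513 to 0.258). Of the other arrestins, 7 tested, Arrb1 (beta-arrestin 1) was the only one called, lower by -0.74 at 12 h (0.000767); without DMSO replicate 3, 2 were called. Of 4 receptors known to be bound by Arrdc3, Insr was the only one analysed here, with changes of 0.05, -0.24 and -0.22 at 3, 6 and 12 h and no call (limma adjusted p = 0.886, 0.114 and 0.0974), although it was called at 6 h and at 12 h without DMSO replicate 1.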

How the data were processed

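Single-colour Affymetrix arrays measured RNA in 4 groups of 3 samples. The deposited table holds 1 column of log2 signals per array for 45101 probe sets (64 controls). The submitters' processing notes name MAS5, with no version given in the sources used here. Each array's linear signals had a 2% trimmed mean of 500.004, so 1 scaling factor per array appears to have been used. Dim probe sets spread widely on this scale.

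Symbols came from the platform annotation: 34945 probe sets had 1, 932 several and 9160 none, and 34741 matched RefSeq by Entrez identifier with 0 symbols changed. Of 45037 probe sets, 25053 reached a log2 signal of 5.77 on at least 3 of 12 arrays; probe sets ending in _x_at stood for a gene only where it had no other. limma 3.58.1 in R 4.3.3 (a mean per group, 8 residual degrees of freedom, intensity trend, two-sided) tested 12136 genes with Benjamini-Hochberg adjustment, and all kept probe sets in a separate fit; the procedure was tested on simulated data.

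The 7 genes, the lists, the motifs and the tests were chosen with earlier results of these data known. From each list the up to 4 called genes with the changes of largest size, and Mlxipl, were to be given with values; some are given by count only. Other genes named from the lists were chosen after their values were seen. Genes like Txnip and Arrdc4 were the 5 with the highest correlation over the 12 arrays, with predicted, RIKEN and similar unnamed genes left out. With 3 samples against 3, an exact permutation test cannot go below p = 0.1, so none was run. Alternatives were other scalings, filters, probe set rules, a replicate block, other fits and leaving out each array. Protein sequences and scanner files were not analysed here.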

Additional observations from a re-analysis of the deposited data

Results flagged for a closer look

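None of the 7 genes passed the test between berberine times. Of the pathway genes that the rule for named genes picked by their changes against DMSO, those below did, by limma's test of the difference over all genes tested, and other called genes of the lists are given by symbol. They are given as values with no explanation, because the effect of berberine and of time in culture cannot be told apart. For pathway genes, the differences between times were not run under any of the alternatives. Some of these genes have probe sets that disagree, among them Ern1, Srxn1, Pgm1 and Pdcd6ip, whose values against DMSO are given below. Between 6 h and 3 h of berberine, the named genes higher at the later time, each with its log2 difference and adjusted p, were Ern1 (0.45, 0.0431), Atf5 (0.38, 0.0108) and Nfe2l2 (0.32, 0.0203). Foxo3 and Eif2ak3 were also lower. Between 12 h and 6 h of berberine, the named genes higher at the later time, each with its log2 difference and adjusted p, were Mxi1 (0.32, 0.0367), Txnl1 (0.34, 0.0026), Srxn1 (0.65, 0.000601) and Atf5 (0.39, 0.00335). The named genes lower at the later time were Pnpla3 (-1.33, 2.94e-08), Gpd1 (-0.57, 0.000411), Fasn (-0.44, 0.0112) and Ddit4 (-0.54, 0.0256). Elovl6 and Me1 were also higher and Thrsp was also lower. Between 12 h and 3 h of berberine, the named genes higher at the later time, each with its log2 difference and adjusted p, were Txnl1 (0.55, 7.42e-06), Srxn1 (0.52, 0.000937), Smurf1 (0.42, 0.0223), Ern1 (0.73, 0.000198), Atf5 (0.78, 1.09e-06) and Nfe2l2 (0.43, 0.000255). The named genes lower at the later time were Arrb1 (-0.69, 0.00238), Mxd1 (-0.59, 0.00307), Myc (-0.29, 0.0322), Pnpla3 (-1.41, 3.69e-09), Rgs16 (-1.35, 0.000559), Gpd1 (-0.80, 2.44e-06), Fasn (-0.55, 0.000564), Hk2 (-0.39, 0.00605), Pgm1 (-0.44, 0.0011), Txnrd2 (-0.39, 0.0438), Txn2 (-0.29, 0.0281) and Pdcd6ip (-0.43, 0.00237). Elovl6 and Me1 were also higher, and Mxd4, Acacb, Thrsp, Klf10, Nedd4, Foxo1 and Foxo3 were also lower.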

How the results depend on the processing

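Of 8 called changes of the 7 genes, 3, those of Arrdc3, kept their call under every alternative run (22 settings in all). Arrdc3 has 1 probe set, so the probe set rules left its values unchanged. Over the 128 values of the 8 changes, 96 kept their call, 30 lost it with the same sign and 2 lost it with the opposite sign. Of 544 values not called, 1 was called (Mlxip at 6 h with only the 2 groups compared) and 27 changed sign. Of the 45 called changes of the pathway genes picked by the rule for named genes, 16 kept their call throughout. Of 720 values, 77 lost it with the same sign and 10 lost it with the opposite sign, the cause not tested. The rule took the changes of largest size. Other called genes of the lists entered the alternatives by list count only, so how far their calls hold was not tested gene by gene.

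The number of the 7 called at 6 h was 1 with the most variable probe set of each gene, and at 12 h it was 1 with that choice, 1 with the mean of probe sets, 2 with only the 2 groups compared, and 1 to 3 without single arrays. With the most variable probe set, Txnip at 6 h was -0.31 with an adjusted p of 0.112, Arrdc4 was 0.030 at 6 h and -0.19 at 12 h, and Arrdc1 at 12 h was -0.30. With the mean of probe sets Arrdc4 was -0.21 at 6 h and -0.26 at 12 h. Its 12 h call was also lost at -0.31 under quantile normalization and median centring, and at -0.33 with no filter, a floor at the threshold, only the 2 groups compared, or the replicate block (adjusted p = 0.0543). Without single arrays Arrdc4 ranged from -0.52 to -0.39 at 6 h and from -0.41 to -0.29 at 12 h. Arrdc1 at 12 h with the mean of probe sets was 0.13 and Mlx at 12 h lost its call with no trend (0.0524), with both probe set rules and with only the 2 groups compared. Of pathway genes, the mean of probe sets gave Ern1 -0.41 at 6 h, Mxd3 0.20, Smurf2 0.00151 and Vps4b -0.041 at 12 h, and the most variable probe set gave Ern1 -1.30 at 6 h, Mxd3 0.93, Pgm1 0.44, Srxn1 -0.15, Pdcd6ip 0.14 and Vps4b -0.35 at 12 h.

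Deviations of samples with the same replicate number correlated at -0.0368 to 0.0301, and those of other groups with different numbers at -0.0463 to 0.038. No pairing by number was detected, although weak correlations over many dim genes cannot exclude shared cultures. Apart from the 12 h call of Arrdc4, the replicate block changed no call of the 7. With 3 arrays a group, the number of arrays limits the precision, most for the dim Arrdc2.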
